A study of Mus musculus with 4 samples.

Results

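Hobit and Blimp-1, encoded by Zfp683 and Prdm1, and 8 other transcription factors of tissue-resident lymphocytes (Runx3, Eomes, Bhlhe40, Ahr, Bcl6, Irf4, Notch1 and Hic1) were followed in lamina propria mononuclear cells (LPMCs), the leukocyte-rich fraction prepared from the connective tissue under the gut epithelium. The factors were chosen by name, as rows of a deposited table of 48526 Ensembl mouse genes, and all 10 had a row. In the DKO group (n = 2) the mice had received CD4 cells deficient in both Hobit and Blimp, and their colitis is labelled mild. In the WT group (n = 2) they had received wt CD4 cells, and their colitis is labelled pronounced. Every mouse was thus a recipient of CD4 cells and had some degree of colitis. The sources used here do not give the strain, sex, age or genotype of the recipients, nor whether several mice were pooled. The labels name the deletion only for the transferred cells, and transcripts of recipient cells can add to the measured level in both groups. Mild disease and the deficiency always occur together in these samples, so effects of disease and of genotype cannot be told apart.

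A resident memory T cell stays in a tissue after an immune response and does not recirculate through blood and lymph. Hobit and Blimp-1 are related zinc finger repressors that, in mouse resident lymphocytes, silence genes needed to leave tissue, such as the sphingosine-1-phosphate receptor S1pr1, its activator Klf2 and the lymph node homing receptor Ccr7. Runx3, Bhlhe40, Ahr, Notch1 and Hic1 favour the formation or upkeep of resident T cells, Irf4 drives effector differentiation of activated T cells, Eomes restrains residency in CD8 cells, and Bcl6 and Blimp-1 repress each other. Several of these factors also work outside T cells: Prdm1 in plasma cells and gut epithelium, Ahr in innate lymphoid cells, Notch1 in endothelium, and Hic1 in fibroblasts.

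Stretches of DNA before a RefSeq transcription start are shown for 4 of the factors, because each holds letters recognised by another factor of the set or by the factor itself. They are RefSeq sequence of build GRCm38.p6, read 5′ to 3′ on the strand of the gene, and hold no annotated exon. Capitals mark the core of the Blimp-1 site, GAAAG or its reverse complement, in Irf4 (chr13:30748983-30749225, plus strand) and Bcl6 (chr16:23988853-23989102, minus strand). In Runx3 (chr4:135120448-135120644, plus strand) they mark 2 copies of the Runx site TGTGGT, written here as its reverse complement ACCACA. In Prdm1 (chr10:44458749-44458998, minus strand) they mark 2 copies of the core of the Ahr site, GCGTG, again as the reverse complement. The Prdm1 stretch lies within the span that GENCODE gives the gene, before a RefSeq start inside it.
Irf4: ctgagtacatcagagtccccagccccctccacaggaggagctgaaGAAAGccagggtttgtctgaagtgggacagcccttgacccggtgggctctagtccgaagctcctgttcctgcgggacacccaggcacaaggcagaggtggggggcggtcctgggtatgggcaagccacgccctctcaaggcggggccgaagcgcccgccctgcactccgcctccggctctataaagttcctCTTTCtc
Bcl6: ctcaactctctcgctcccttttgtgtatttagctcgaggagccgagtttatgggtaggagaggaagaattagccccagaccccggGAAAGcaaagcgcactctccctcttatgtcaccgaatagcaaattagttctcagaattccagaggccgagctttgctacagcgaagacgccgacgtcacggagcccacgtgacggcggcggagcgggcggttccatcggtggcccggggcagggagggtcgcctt
Runx3: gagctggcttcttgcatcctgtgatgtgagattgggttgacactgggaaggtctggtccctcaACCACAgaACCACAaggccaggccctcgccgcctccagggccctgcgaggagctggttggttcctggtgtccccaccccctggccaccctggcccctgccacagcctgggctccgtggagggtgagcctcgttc
Prdm1: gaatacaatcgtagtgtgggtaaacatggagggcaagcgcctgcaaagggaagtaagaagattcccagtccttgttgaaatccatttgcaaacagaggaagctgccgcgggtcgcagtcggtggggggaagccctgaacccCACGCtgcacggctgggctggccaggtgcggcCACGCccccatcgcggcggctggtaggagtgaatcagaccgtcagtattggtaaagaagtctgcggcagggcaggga

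Such letters are frequent. Over 32851 windows of 250 bases before RefSeq starts, searched on both strands, GAAAG was present in 51.5%, TGTGGT in 14% and GCGTG in 28.2%. Of the 10 factors 7 matched the table, with 10 windows in all. The Bcl6 site TTCCNNGAA was present in 4.06%. Among the 10 windows GAAAG lay in those of Irf4 and Bcl6, TGTGGT in 1 of the 2 of Runx3, TTCCNNGAA in 1 of the 2 of Bcl6, and GCGTG in those of Prdm1, Irf4 and Hic1. The matches describe the sequence and say nothing about binding in these cells.

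None of the 10 factors differed between DKO and WT past the threshold, although Runx3, Eomes, Ahr and Zfp683 did so in some alternative fits given with their values. Expression is given as rlog, a regularized log2 value per gene computed by the authors, in which differences of low genes are pulled towards 0. Levels are not scaled by gene length, and are therefore compared between samples and not between genes. The number of reads per sample is unknown. With a minimum mean rlog of 4, 13528 genes and 9 of the 10 factors were tested in limma, a linear model with a spread moderated across genes. At a Benjamini-Hochberg adjusted p under 0.05, 0 of the 9 factors were called, against 14.8% of all tested genes. At an unadjusted p under 0.05 there was 1, Runx3, against 26.4% of all tested genes. No other tool was run. The median difference of the 9 factors was -0.028, beside -0.0219 over all tested genes, and the differences ran from -0.30 for Runx3 to 0.29 for Eomes. The median of the 9 was 0.053 with quantile normalization and 0.14 relative to T cell markers. In 3 of the 9, Runx3, Ahr and Bcl6, the DKO and WT values did not overlap, against 55.3% of all tested genes. Fewer cells of a type and less RNA per cell give the same change in bulk samples and cannot be told apart.

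**Figure D1:**
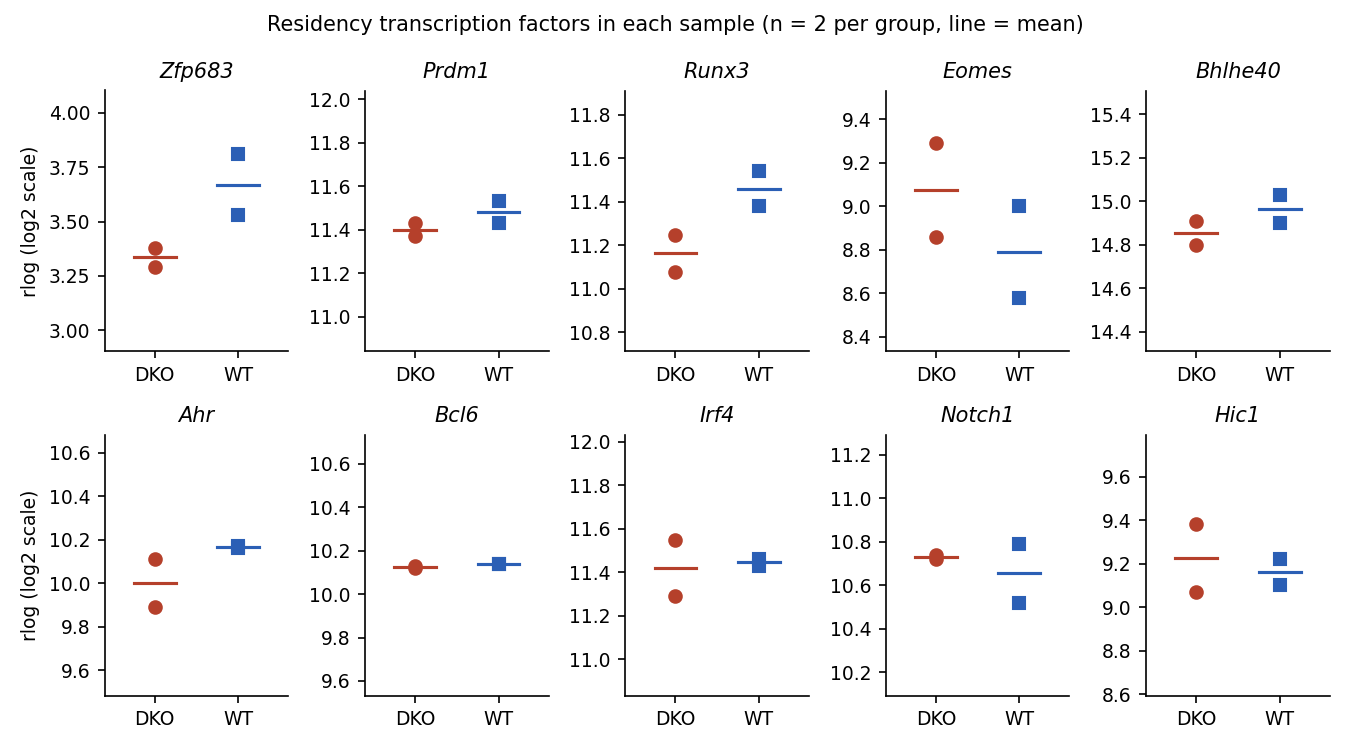
Expression (rlog, log2 scale) of the 10 factors in each sample, DKO (circles) left of WT (squares), with 2 samples a group and a line at the group mean; every panel spans the same height on the log2 scale. Runx3 and Zfp683 lie lower in both DKO samples than in both WT samples, and Bcl6 varies by 0.02 over the 4 samples.

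The transcripts of the deleted genes had lower means in DKO, without a call. Zfp683 (ENSMUSG00000049410, positions 134053838 to 134058996 of chromosome 4 in GRCm38) measured 3.29 and 3.38 rlog in DKO, against 3.53 and 3.81 in WT. Both DKO samples were below both WT samples, but at a low level, with a mean of 3.50 that fell short of the minimum for testing. In a limma fit with no minimum the difference of -0.34 (SE 0.122, 95% interval -0.679 to -0.00219) had an adjusted p = 0.294. Without WT replicate 2, the highest sample, the difference was -0.20. With median centring it passed (-0.35, adjusted p = 0.0189), although the difference itself hardly moved. That fit shifted every gene, also those near the floor, and the effect of this on the adjusted p was not tested. Prdm1 (ENSMUSG00000038151, positions 44437177 to 44528501 of chromosome 10) measured 11.37 and 11.43 in DKO and 11.53 and 11.43 in WT. DKO replicate 2 and WT replicate 2 were level, so the groups met. The difference of -0.077 (SE 0.0817, adjusted p = 0.617 in limma) had a 95% interval of -0.26 to 0.10, and was 0.002 with quantile normalization. No source says which exons were deleted, and recipient cells may express both genes, so neither level checks the labels.

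Prdm1 is the defining factor of plasma cells, and most plasma cell markers were close to the floor of the table. The receptor Tnfrsf17 was listed at 0 in all 4 samples, and Jchain, the joining chain of secreted antibodies, had rlog values of 2.04 and 2.19 in DKO and 2.07 and 2.52 in WT. Of 5 markers 2 reached the minimum for testing, and 1 of them fell. This was Sdc1, a proteoglycan that epithelium also carries, at 10.83 and 11.24 in DKO and 11.81 and 11.75 in WT (-0.74, SE 0.118, limma adjusted p = 0.0013). Pax5, the B cell lineage factor, was listed at 0 throughout. Epithelial genes were present: the mean rlog of 6 markers was 10.78 and 10.73 in DKO and 10.74 and 10.80 in WT, and 0 of 6 passed the limma test (1 had an unadjusted p under 0.05). Their part in the level of Prdm1 was not tested.

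T cell markers had slightly lower means in DKO, without a call when all 4 samples were fitted. Their mean rlog over 10 genes, among them Cd3e, Cd4 and the receptor constant gene Trac, was 11.54 and 11.68 in DKO and 11.75 and 11.82 in WT, a difference of -0.17. All 10 had a lower mean in DKO, 0 of 10 passed the limma test and 5 had an unadjusted p under 0.05, but 3 of 10 were higher in DKO with quantile normalization. Without DKO replicate 2, 5 of 10 fell, with a median of -0.28. Set against this mean within each sample, Prdm1 was at -0.17 and -0.25 in DKO and at -0.22 and -0.39 in WT. On that scale its difference was 0.095 (SE 0.111, limma adjusted p = 0.603), with the sign turned round. Zfp683 was at -8.25 and -8.30 in DKO and at -8.21 and -8.00 in WT on that scale. In the fit with no minimum its difference there was -0.17 (limma adjusted p = 0.348), against -0.34 on the deposited scale. The same scaling moved the median difference of all tested genes to 0.15, from which Prdm1 lay no further than its own SE. It gave 2104 rises and 206 falls, against 1342 and 656 on the deposited scale.

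Genes of tissue egress, which Hobit and Blimp-1 repress, were lower in DKO where they passed the test. Of 9 genes 8 were tested, 2 fell and 0 rose, with a median of -0.30, while 4.85% of all tested genes fell and 9.92% rose. S1pr1 had rlog values of 10.35 and 10.34 in DKO, against 10.66 and 10.60 in WT (-0.29, SE 0.077, limma adjusted p = 0.0283). Lef1, a transcription factor of naive and central memory T cells, was at 8.91 and 9.50 in DKO and at 9.83 and 9.77 in WT (-0.60, SE 0.149, adjusted p = 0.0192). In both genes the groups were apart, and DKO replicate 1 was the lowest sample for Lef1. Klf2 (-0.35, adjusted p = 0.0538) did not pass, nor did Ccr7 (-0.037, adjusted p = 0.865) or the Lef1 relative Tcf7 (0.057, adjusted p = 0.725). With quantile normalization S1pr1 had an adjusted p = 0.0824. It did not pass without WT replicate 1 or WT replicate 2 (adjusted p = 0.216 and 0.113), and relative to the T cell markers it stood at -0.11 (adjusted p = 0.541). The Lef1 difference was -0.30 without DKO replicate 1, and missed the threshold when variances were estimated robustly (adjusted p = 0.17). Over the list, 3 genes fell without DKO replicate 1, 4 without DKO replicate 2 and 1 without WT replicate 2, and 1 relative to the T cell markers.

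Of 9 genes that Blimp-1 is known to repress in B or T cells, Tcf7 and Ccr7 among them, 8 were tested. Of these 1 rose and 0 fell, with a median of 0.15, a share of rises near the 9.92% of all tested genes. Id3, an inhibitor of E proteins found in memory T cells, had rlog values of 10.18 and 10.27 in DKO, against 9.84 and 9.85 in WT (0.38, SE 0.0791, limma adjusted p = 0.0072). Both DKO samples were higher than both WT samples, a fold of 1.30, and Id3 passed in each fit without 1 sample (adjusted p from 0.00132 to 0.048). Spib, an Ets factor of B cells and plasmacytoid dendritic cells, was at 6.24 and 6.22 in DKO and at 6.60 and 6.56 in WT and did not pass (-0.35, adjusted p = 0.051), but fell with median centring, with quantile normalization, with a robust variance estimate and with no variance trend. Myc (0.14), the class II transactivator Ciita (0.17), Bach2 (0.21) and Il2 (0.29) did not pass either. All 9 endothelial and all 7 fibroblast markers rose in the same samples, and the part of such cells in the level of Id3 was not tested. Without DKO replicate 2, 2 genes of the list rose.

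**Figure D2:**
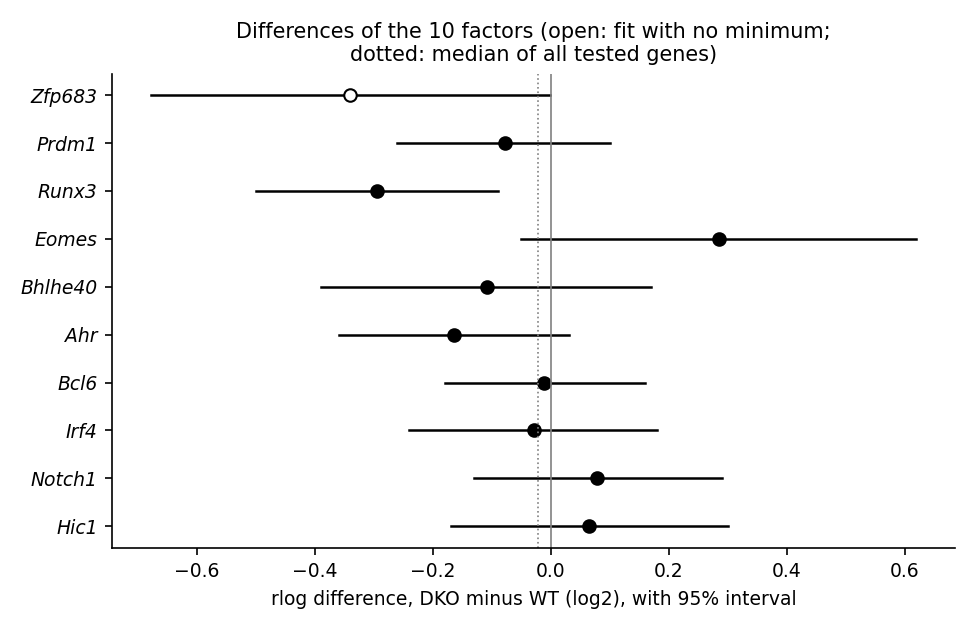
Difference in rlog, DKO minus WT, for each of the 10 factors, with its 95% interval from limma (n = 2 a group); the open point is Zfp683, from the fit with no minimum, and the dotted line is the median of all tested genes. The intervals of Runx3 and Zfp683 lie below 0, but are not adjusted for the number of genes, and the adjusted p of both missed the threshold.

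Runx3 came nearest to the threshold. This factor silences Cd4 in CD8 T cells and supports their residency in tissue, and natural killer cells and dendritic cells use it as well. Runx3 (ENSMUSG00000070691, positions 135120652 to 135177990 of chromosome 4) had rlog values of 11.08 and 11.25 in DKO, against 11.54 and 11.38 in WT. Both DKO samples were below both WT samples, and their mean was 1.23-fold lower (-0.30, SE 0.0921, 95% interval -0.50 to -0.09, limma adjusted p = 0.0551). Over the alternatives the adjusted p ran from 0.0033 to 0.493 with the same sign throughout. Runx3 passed without DKO replicate 2 (-0.38, adjusted p = 0.0033), with median centring (adjusted p = 0.0423) and with a robust variance estimate (adjusted p = 0.0433). Relative to the T cell markers the difference was -0.12 (adjusted p = 0.493), where the median over all tested genes was 0.15.

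Relatives of Runx3 and their partners did not pass. All 4 had a lower mean in DKO, but 2 of them were higher relative to the T cell markers, where their median was 0.011. Cbfb, the subunit with which every Runx protein binds DNA, had rlog values of 10.51 and 10.52 in DKO and 10.69 and 10.79 in WT (-0.22, SE 0.0786, limma adjusted p = 0.089). Runx1 (-0.15, adjusted p = 0.261), Runx2 (-0.10, adjusted p = 0.463) and Zbtb7b, which encodes ThPOK, the antagonist of Runx3 in CD4 T cells (-0.17, adjusted p = 0.234), lay between 0 and Cbfb. The median of the 4 genes was -0.16, close to the -0.18 of the T cell markers, and 1 of the 4 had an unadjusted p under 0.05. In these 4 genes the DKO and WT values did not overlap, as in 55.3% of all tested genes. The CD8 genes were spread unevenly. Cd8a had rlog values of 8.23 and 9.64 in DKO and 8.15 and 8.92 in WT, and Cd8b1 6.04 and 8.09 in DKO and 6.04 and 6.10 in WT. Like both, Runx3 was higher in DKO replicate 2 than in DKO replicate 1, but it was lower there than in either WT sample. The part of CD8 cells in the level of Runx3 was not tested.

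Eomes had the widest spread of the 9 tested factors. Eomes, a T-box factor of natural killer cells and of cytotoxic T cells (ENSMUSG00000032446, positions 118478212 to 118486132 of chromosome 9), had rlog values of 9.29 and 8.86 in DKO, against 8.58 and 9.0 in WT. DKO replicate 1 was the highest sample, and DKO replicate 2 lay between the WT samples. The difference of 0.29 (SE 0.153, 95% interval -0.05 to 0.62, limma adjusted p = 0.269) was smaller than the gap of 0.43 between replicates of DKO. It passed in 3 other fits: without DKO replicate 2 (0.50, adjusted p = 0.0038), without WT replicate 2 (0.50, adjusted p = 0.0368) and relative to the T cell markers (0.46, adjusted p = 0.0091). It was 0.073 without DKO replicate 1 (adjusted p = 0.807) and 0.077 without WT replicate 1 (adjusted p = 0.853). The difference therefore rested on single samples of both groups.

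Markers of natural killer cells and type 1 innate lymphoid cells were higher beside Eomes. Their mean rlog over 6 genes was 9.51 and 9.47 in DKO and 9.16 and 9.26 in WT. In limma 9.92% of all tested genes rose, and 3 of these 6 rose. Without WT replicate 1 none of the 6 did, without WT replicate 2 there was 1, and with quantile normalization 2. The activating receptor Klrk1 was at 9.98 and 9.98 in DKO and at 9.64 and 9.66 in WT (0.33, SE 0.0776, adjusted p = 0.0146). Ncr1, which encodes the receptor NKp46, was at 6.78 and 6.29 in DKO and at 6.25 and 6.33 in WT (0.24, adjusted p = 0.358). Like Eomes, Ncr1, Klrb1c and Klre1 were highest in DKO replicate 1. Nkg7 and Gzma were instead highest in DKO replicate 2, and Klrk1 was level in the DKO samples. The part of such cells in the level of Eomes was not tested. Tbx21, which encodes T-bet, the T-box factor of type 1 helper cells, was at 8.96 and 9.20 in DKO and at 8.89 and 8.99 in WT (0.14, adjusted p = 0.414). Lineage factors of helper cells gave no call with all samples: of 7 genes, with Gata3 and Foxp3 among them, 0 passed and 0 had an unadjusted p under 0.05, although 1 fell without DKO replicate 1 and 1 rose without WT replicate 2.

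Irf4 and Bhlhe40 did not pass the test. Irf4, which rises with the strength of T cell receptor signals (ENSMUSG00000021356, positions 30749226 to 30766976 of chromosome 13), had rlog values of 11.55 and 11.29 in DKO and 11.43 and 11.46 in WT. Both WT samples lay between the DKO samples, and the difference of -0.028 (SE 0.0953, 95% interval -0.24 to 0.18, limma adjusted p = 0.897) turned to 0.10 without DKO replicate 2. Bhlhe40, a basic helix-loop-helix repressor that sustains cytokine production and mitochondrial fitness in T cells (ENSMUSG00000030103, positions 108660629 to 108666925 of chromosome 6), had values of 14.80 and 14.91 in DKO and 14.90 and 15.03 in WT. The groups overlapped (-0.11, SE 0.127, 95% interval -0.39 to 0.17, adjusted p = 0.652), and the difference was 0.086 with quantile normalization. Without the strand setting of the counting, reads of Bhlhe40 and of its antisense neighbour 0610040F04Rik, at a mean rlog of 3.69, cannot be told apart. Annotated antisense neighbours of Runx3, Bcl6 and Notch1 had a mean rlog of 1.13 or lower.

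Among relatives and partners of Irf4, 3 of 12 genes fell and 0 rose in limma, with a median of 0.012. Of all tested genes 4.85% fell and 9.92% rose. Batf, the AP-1 factor that binds DNA together with Irf4 in T cells, had rlog values of 10.50 and 10.62 in DKO, against 10.80 and 10.93 in WT (-0.30, SE 0.085, adjusted p = 0.0357). Both DKO samples were lower, but Batf did not pass without DKO replicate 1, WT replicate 1 or WT replicate 2 (adjusted p = 0.0831, 0.0553 and 0.335). Spi1, the myeloid Ets factor that pairs with Irf4 in B cells, was at 10.37 and 10.60 in DKO and at 11.16 and 10.97 in WT (-0.58, SE 0.0988, adjusted p = 0.002). Irf5, a factor of macrophages, fell by 0.32 (adjusted p = 0.0226), and did not pass without DKO replicate 1, WT replicate 1 or WT replicate 2 (adjusted p = 0.0533, 0.191 and 0.0526). Macrophage markers fell beside them, 7 of 8 genes, with mean rlog of 9.98 and 10.17 in DKO and 10.52 and 10.48 in WT; their part in these falls was not tested. Of these markers 3 fell without WT replicate 1, 5 without WT replicate 2 and 3 relative to the T cell markers. Neutrophil markers fell too, 10 of 10, with 10.12 and 9.95 in DKO and 11.44 and 11.61 in WT. Relative to the T cell markers Spi1 fell, while Batf and Irf5 did not pass (adjusted p = 0.478 and 0.402). Over the Irf4 list, 1 gene fell without each of these 3 samples.

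**Figure D3:**
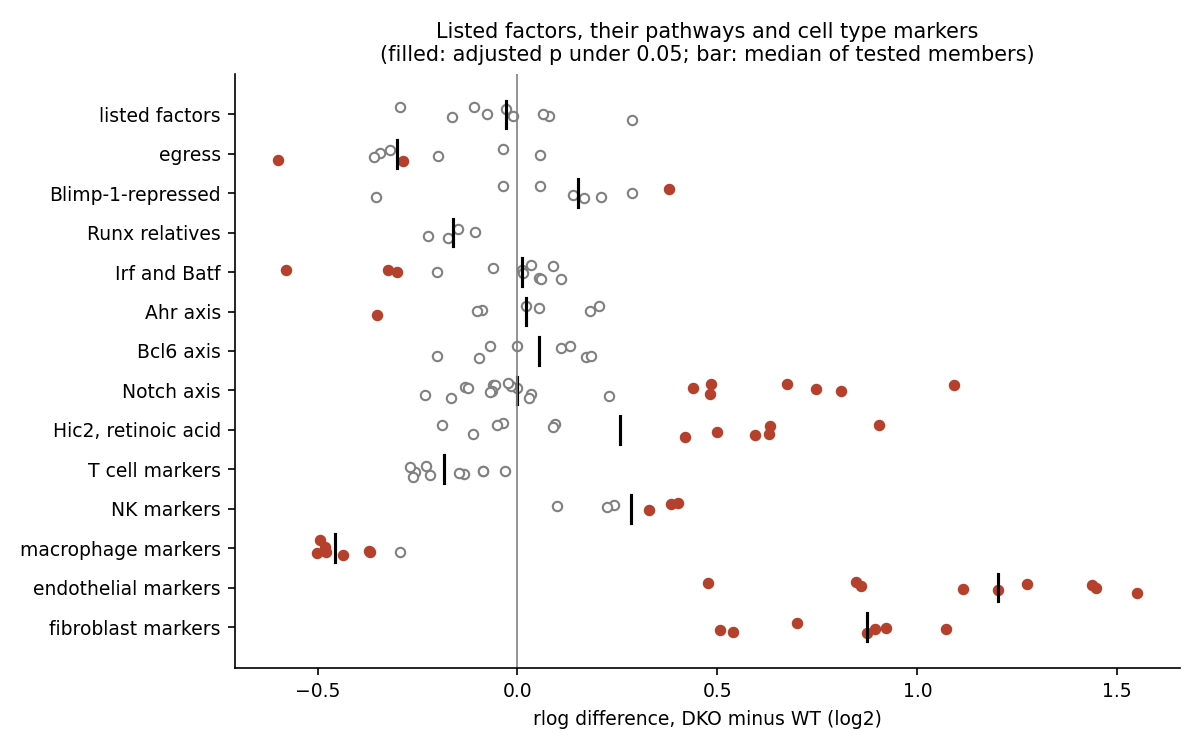
Difference in rlog, DKO minus WT, of each tested gene in the listed factors, in their pathways and in cell type markers (1 point a gene, n = 2 samples a group); filled points passed the limma threshold and bars are medians. None of the listed factors is filled, while 7 genes of the Notch axis and 6 of the retinoic acid list are filled on the right, as are the endothelial and fibroblast markers.

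Ahr, a receptor for dietary and microbial ligands that maintains intraepithelial and innate lymphocytes of the gut, showed a small difference. Ahr (ENSMUSG00000019256, positions 35497974 to 35535038 of chromosome 12) had rlog values of 10.11 and 9.89 in DKO, against 10.16 and 10.17 in WT. Both DKO samples were below both WT samples, DKO replicate 1 by a small margin (-0.17, SE 0.0895, 95% interval -0.36 to 0.03, limma adjusted p = 0.278). The difference was -0.27 without DKO replicate 1, where it passed (adjusted p = 0.0438), and -0.057 without DKO replicate 2. Relative to the T cell markers it was 0.007, with the sign turned round. Of 9 partners and targets 7 were tested, with a median of 0.022. While 4.85% of all tested genes fell, 1 of these 7 fell. It was Ptges3, the cochaperone p23 of the Ahr complex, with 10.31 and 10.14 in DKO and 10.49 and 10.67 in WT (-0.35, SE 0.0929, adjusted p = 0.0258), which did not pass without WT replicate 2 (adjusted p = 0.256), with quantile normalization (0.0797) or relative to the T cell markers (0.324). Targets of Ahr did not pass: the feedback repressor Ahrr was at 0.21 (adjusted p = 0.316), Cyp1b1 at 0.18 (adjusted p = 0.411) and Tiparp at -0.10 (adjusted p = 0.528). Cyp1a1, the classical Ahr target, had rlog values of 0.28 and 0.16 in DKO and 0.22 and 0.20 in WT, and Cyp1a2 was listed at 0 in every sample.

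Bcl6 varied least. The gene encodes the repressor that directs follicular helper T cells and germinal centre B cells (ENSMUSG00000022508, positions 23965052 to 23988852 of chromosome 16). Its rlog values were 10.13 and 10.12 in DKO and 10.14 and 10.14 in WT, a range of 0.02 over the 4 samples. The groups did not overlap, yet the difference was -0.012 (SE 0.0764, 95% interval -0.18 to 0.16, limma adjusted p = 0.953). Of 10 corepressors and genes of follicular helper cells 8 were tested, with a median of 0.054, and 0 passed (0 at an unadjusted p under 0.05). Il21, a cytokine of these cells, had values of 7.67 and 7.52 in DKO and 7.75 and 7.85 in WT (-0.20, adjusted p = 0.257), and their chemokine receptor Cxcr5 overlapped between the groups (0.13, adjusted p = 0.643).

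Notch1 did not pass, while some other receptors, ligands and targets of the pathway rose. A Notch receptor is cleaved when a ligand on a neighbouring cell binds it, and its intracellular part joins Rbpj in the nucleus to switch on Hes and Hey genes. Notch1 (ENSMUSG00000026923, positions 26457903 to 26516663 of chromosome 2) had rlog values of 10.72 and 10.74 in DKO and 10.79 and 10.52 in WT. Both DKO samples lay between the WT samples (0.079, SE 0.0955, 95% interval -0.13 to 0.29, limma adjusted p = 0.668), and the difference turned to -0.056 without WT replicate 2. Notch2 did not pass either (-0.061, adjusted p = 0.708). Notch3, a receptor of mural cells of vessels, was at 6.86 and 7.07 in DKO, against 6.06 and 5.70 in WT. The groups of Notch3 were far apart, a fold of 2.13 (1.09, SE 0.14, adjusted p = 0.00032). Notch4, an endothelial receptor, was at 6.43 and 6.45 in DKO and at 5.65 and 5.88 in WT (0.67, SE 0.121, adjusted p = 0.0027). Whether the difference of Notch3 or Notch4 exceeds that of Notch1 was not tested.

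Of the 23 other Notch pathway genes 21 were tested, of which 7 rose, 0 fell and 14 did not pass, with a median of -0.001. Of all tested genes 9.92% rose and 4.85% fell. Among ligands, Dll1 had rlog values of 7.00 and 7.03 in DKO and 6.04 and 6.38 in WT (0.81, SE 0.13, limma adjusted p = 0.0014). Dll4, the ligand of endothelial tip cells, was at 7.59 and 7.67 in DKO and at 7.17 and 7.12 in WT (0.48, adjusted p = 0.0083), and did not pass without WT replicate 2 (adjusted p = 0.0595). Jag2 rose by 0.44 (adjusted p = 0.0344), but was at 0.31 without WT replicate 2 (adjusted p = 0.339) and at 0.29 with quantile normalization (adjusted p = 0.171). Among targets, Heyl was at 5.93 and 5.76 in DKO and at 5.14 and 5.06 in WT (0.75, SE 0.116, adjusted p = 0.0011), and Hes1 at 9.67 and 9.76 in DKO and at 9.19 and 9.27 in WT (0.48, SE 0.083, adjusted p = 0.0021). The nuclear partner Rbpj (-0.016, adjusted p = 0.928) and the targets Dtx1 (-0.12, adjusted p = 0.529) and Nrarp (0.03, adjusted p = 0.918), both active in lymphocytes, did not pass. All 9 endothelial markers rose beside these genes, with mean rlog of 8.13 and 8.12 in DKO and 7.07 and 6.91 in WT. All 6 smooth muscle markers rose too, with 11.15 and 11.59 in DKO and 10.43 and 9.50 in WT, but none of the 6 passed with a robust variance estimate. The part of vessel cells in the Notch genes was not tested. Without WT replicate 2, 5 Notch genes rose, and 2 fell without DKO replicate 2.

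Hic1 did not pass either. It is a zinc finger repressor induced by retinoic acid, the vitamin A derivative that imprints gut lymphocytes, and it keeps tissue fibroblasts quiescent. Hic1 (ENSMUSG00000043099, positions 75164565 to 75169519 of chromosome 11) had rlog values of 9.07 and 9.38 in DKO and 9.22 and 9.10 in WT. The DKO samples were the lowest and the highest of the 4 (0.064, SE 0.108, 95% interval -0.17 to 0.30, limma adjusted p = 0.776). The difference was 0.22 without DKO replicate 1 and -0.091 without DKO replicate 2. Its relative Hic2 did not pass (-0.036, adjusted p = 0.889).

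Several enzymes that make or clear retinoic acid rose in DKO. Of 17 genes of this list 12 were tested, 6 rose and 0 fell, with a median of 0.26, while 9.92% of all tested genes rose and 4.85% fell. Aldh1a3, a retinaldehyde dehydrogenase that makes retinoic acid, had rlog values of 8.07 and 7.93 in DKO, against 7.20 and 6.99 in WT (0.91, SE 0.113, limma adjusted p = 0.00027). Aldh1a1 was at 8.38 and 8.26 in DKO and at 7.70 and 7.68 in WT (0.63, SE 0.0976, adjusted p = 0.0011), and Aldh1a2 at 7.40 and 7.41 in DKO and at 6.64 and 6.92 in WT (0.63, SE 0.12, adjusted p = 0.004). All 3 dehydrogenases thus had both DKO samples above both WT samples, while 55.3% of all tested genes did not overlap between the groups. Cyp26b1, which degrades retinoic acid, rose by 0.59 (adjusted p = 0.005) and the retinol dehydrogenase Rdh10 by 0.42 (adjusted p = 0.0299). Neither passed without WT replicate 1 (adjusted p = 0.0554 and 0.235), nor did Rdh10 without DKO replicate 1 (adjusted p = 0.0811), and 3 genes of the list rose without WT replicate 1. The retinaldehyde reductase Dhrs3 had lower values in DKO, 9.40 and 9.43, against 9.49 and 9.45 in WT, and did not pass (-0.051, adjusted p = 0.758). Cyp26a1, a relative of Cyp26b1, was under the minimum, at 2.09 and 1.94 in DKO and 2.00 and 2.24 in WT. Retinoic acid receptors did not pass: Rara was at -0.19 (adjusted p = 0.213) and Rarg at 0.094 (adjusted p = 0.617). All 7 fibroblast markers rose beside them, with mean rlog of 12.03 and 11.79 in DKO and 11.14 and 11.10 in WT, and the part of fibroblasts in this list was not tested.

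Of 19 further transcription factors of resident lymphocytes 1 rose and 1 fell, with a median of -0.02, while 14.8% of all tested genes were called. An unadjusted p under 0.05 was found for 5, near the 26.4% of all tested genes. The rise was Id3, which both lists hold. The fall was Nfil3, a factor required for innate lymphoid cells, with 11.63 and 11.66 in DKO and 11.98 and 11.97 in WT (-0.33, SE 0.0794, limma adjusted p = 0.0156). The replicates of Nfil3 were close in both groups, but it did not pass without WT replicate 1 or WT replicate 2 (adjusted p = 0.118 and 0.111), nor relative to the T cell markers (0.352). Id2, which like Nfil3 supports innate and effector lymphocytes, was at 12.82 and 12.77 in DKO and at 12.98 and 13.25 in WT (-0.32, adjusted p = 0.0737). Zbtb16, which encodes PLZF of innate-like T cells, was at 5.46 and 4.87 in DKO and at 4.75 and 4.65 in WT, highest in DKO replicate 1 as Eomes was (0.46, adjusted p = 0.101). Without DKO replicate 1, 2 of the 19 fell, and without DKO replicate 2, 3 rose and 2 fell, while without WT replicate 2, 2 rose and 0 fell.

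**Figure D4:**
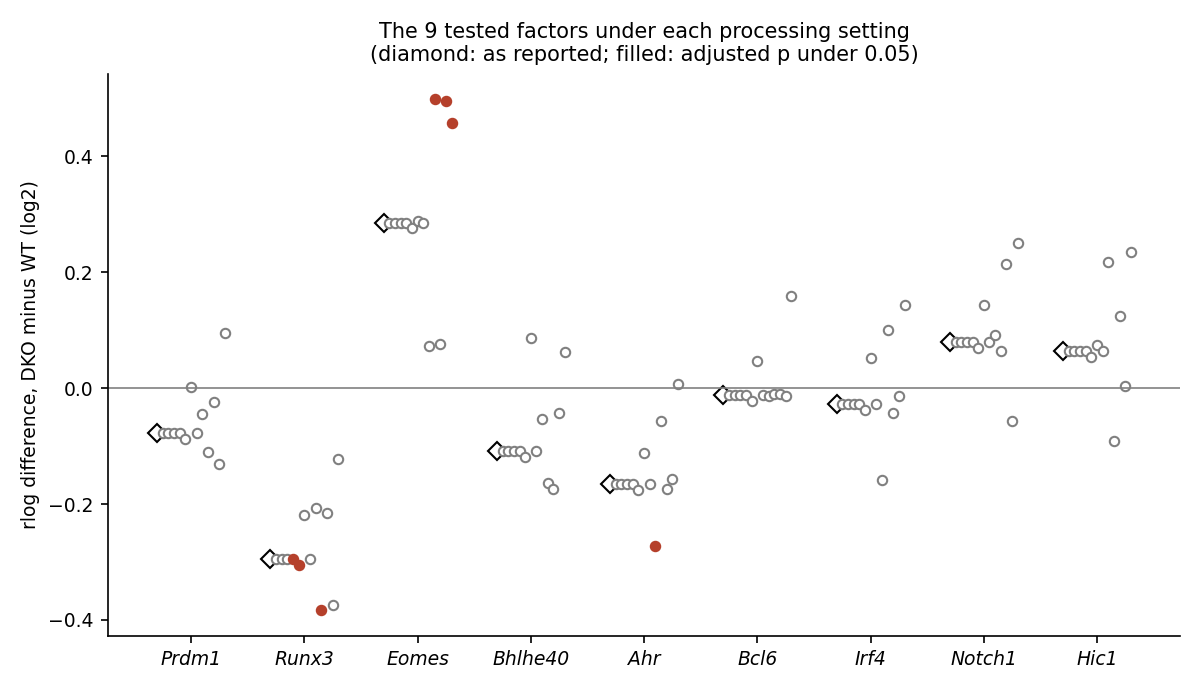
Difference in rlog, DKO minus WT, of the 9 tested factors in each fit, from left to right as reported (diamond), with other filters, variance estimates and normalizations, without each sample, and relative to T cell markers; filled points passed the limma threshold. Runx3 stays below 0 and Eomes above 0 in all 13 fits, each past the threshold in 3, and Ahr passed in 1.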

How the data were processed

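Stranded mRNA libraries of LPMCs were sequenced, per the labels' protocols. The deposited values are log2 values, rlog of DESeq2, per the name of the authors' table and the submitters' processing notes, which also name STAR 2.5.4a, the read counter featureCounts of Subread 1.5.2, cutadapt 1.9.1 and the build GRCm38. Roles and settings of these tools were not given in the sources used here. The table has 2 columns that match no labelled sample and were not used. Replicates were numbered in order of entry, which pairs nothing. The series text calls them biological replicates without naming animals. The p-values therefore rest on the spread between these samples, moderated across the genes fitted, and not on the spread of each gene alone.

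Of 48526 identifiers 48058 matched a GENCODE M21 symbol. Those averaging 4 or more were fitted in R 4.3.3 with limma 3.58.1 (group as the only term, mean-variance trend, 8.9 prior degrees of freedom), two-sided, adjusted over all 13528. Intervals (95%) are not adjusted. Figures used matplotlib 3.10.9 in Python 3.11.15. In simulated data for these 13528 genes the fit of DKO against WT recovered 13.4% of 67 true differences of 0.25, 88.1% of 67 of size 0.5, and 100% of 66 of size 1. It made 6 false calls. Each simulated gene had the spread that the trend gives at its level, without the scatter of spread between measured genes. The shares therefore need not hold for the measured genes. Factors and lists were chosen with earlier results of these data known. The text names each factor, up to 4 called genes of each pathway list by smallest p, and further genes chosen after their values were seen. The rule naming genes similar to a called factor had none to act on. Values of some listed genes are not reported here.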

Additional observations from a re-analysis of the deposited data

How the results depend on the processing

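Counts of calls depended on the fit. The 1998 calls (1342 rises, 656 falls) became 206 with no minimum (181 rises, 25 falls), where the prior degrees of freedom were 2.01, and 878 genes rose with a minimum mean rlog of 6. Marker calls shrank too with no minimum, with directions kept. There 4 of 9 endothelial, 1 of 7 fibroblast and 0 of 6 smooth muscle markers rose. Falls were left in 1 of 10 neutrophil and 0 of 8 macrophage markers, and 0 of 6 natural killer cell markers rose. Without 1 sample the calls ran from 1332 to 2882, the rises from 1008 to 1660 and the falls from 324 (without WT replicate 2) to 1222 (without DKO replicate 2), and the factors called from 0 to 2. With median centring 1 factor was called (Runx3), likewise 1 with a robust variance estimate (Runx3) and 1 relative to the T cell markers (Eomes), a scaling chosen after seeing the data that gave 2310 calls, 2104 rises and 206 falls.

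Signs of factors that were not called turned as follows. With quantile normalization Prdm1 was at 0.002, Bhlhe40 at 0.086, Bcl6 at 0.047 and Irf4 at 0.053. Relative to the T cell markers Prdm1 was at 0.095, Bhlhe40 at 0.063, Ahr at 0.007, Bcl6 at 0.16 and Irf4 at 0.143. In fits without 1 sample Irf4 ran from -0.158 to 0.101, Hic1 from -0.091 to 0.218 and Notch1 from -0.056 to 0.214. The cause was not tested. Zfp683, in fits with no minimum, kept its sign and passed only with median centring (-0.35, adjusted p = 0.0189). Its difference there was close to the -0.34 without centring, but relative to the T cell markers it was -0.17. Of the 22 pathway genes called, 0 passed with no minimum (lowest adjusted p = 0.0572), 15 with quantile normalization 14 without WT replicate 1 and 14 without WT replicate 2. No paired analysis was possible because the labels give no pairing of samples. With 1 sample left out, its group keeps a lone sample, assumed to vary like the other group. Depth per sample is unknown, so its effect on low genes such as Zfp683 was not tested.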

Other observations

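Other PR domain genes, relatives of Prdm1, gave no call. Of 13 listed 9 were tested, with a median difference of 0.11, and 0 passed in limma (0 at an unadjusted p under 0.05). Prdm11 had rlog values of 6.45 and 6.54 in DKO and 6.32 and 6.19 in WT (0.24, adjusted p = 0.207), and Prdm2, a histone methyltransferase gene, was at 10.28 and 10.21 in DKO and at 10.14 and 10.04 in WT (0.15, adjusted p = 0.266). Both were chosen after their values were seen. In each the DKO samples were above the WT samples, while Prdm1 overlapped.

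Bhlhe40 represses genes of the circadian clock, and of 11 such genes and relatives 1 rose and 0 fell, with a median of 0.036, a share near the 9.92% of all tested genes that rose. It was Dbp, a clock output gene, at 6.15 and 5.96 in DKO and at 5.72 and 5.59 in WT (0.40, SE 0.12, limma adjusted p = 0.0464). Dbp did not pass without DKO replicate 1, WT replicate 1 or WT replicate 2 (adjusted p = 0.177, 0.0776 and 0.294), with median centring (adjusted p = 0.0561) or with quantile normalization (0.26, adjusted p = 0.192). Without DKO replicate 1 the list held 0 rises and 1 fall, and without DKO replicate 2 it held 2 of each. The close relative Bhlhe41 was at 5.29 and 5.65 in DKO and at 5.68 and 5.80 in WT (-0.27, adjusted p = 0.242). The labels give no time of day for the tissue, and its part was not tested.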
